A study of Mus musculus with 9 samples.

Results

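The 8 genes *Lin28a*, *Lin28b*, *Hmga1*, *Hmga2*, *Igf2bp1*, *Igf2bp2*, *Igf2bp3* and *Arid3a* are RNA-binding and chromatin factors of fetal and stem cells. They were taken by symbol from the deposited gene table, which holds 26858 genes. Of the 8 genes, 6 passed a filter on low counts that left 14990 genes for testing, and *Lin28a* and *Lin28b* did not pass it. RNA was sequenced from nephron progenitors of mouse kidneys at embryonic day E18.5, sorted by the green fluorescence of a Cre recombinase fusion under the *Six2* promoter. Controls (n = 4) came from *Six2-Qpc* heterozygous kidneys and mutants (n = 5) from *Six2-Qpc* knockout kidneys, in which both alleles of *Uqcrq*, a subunit of mitochondrial complex III also called QPC, were floxed. Control cells thus carried the same *Six2*-driven Cre transgene, and 1 of their alleles was inactivated too. Each library was 1 sample, and the labels do not say whether samples came from separate animals or litters, so the p-values measure the spread between these samples.

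LIN28A and LIN28B are RNA-binding proteins that block the maturation of let-7, a family of microRNAs that accumulates as tissues mature. Mature let-7 lowers the level of transcripts that carry matches to its seed in their 3′ untranslated region (UTR). HMGA1 and HMGA2, which bind AT-rich DNA and open chromatin, the IGF2 mRNA-binding proteins IGF2BP1, IGF2BP2 and IGF2BP3, and the DNA-binding protein ARID3A are known as let-7 targets or partners of LIN28 in fetal programmes. In the mouse kidney, prolonged LIN28 activity is known to extend the period in which nephron progenitors are renewed.

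The seed of let-7 and its matches in the 8 genes are shown first, since this sequence is what the group shares. Of the 12 let-7 and miR-98 hairpins with this seed in RefSeq (GRCm38.p6), 5 lay within the span of a gene of the table on the same strand, and the mature forms of those 5 follow, from the 5′ to the 3′ end, with the seed (bases 2 to 8) in capitals.
let-7c-5p (chr16:77599672-77599693, plus strand): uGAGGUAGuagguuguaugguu
let-7d-5p (chr13:48536078-48536099, minus strand): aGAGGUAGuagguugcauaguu
let-7f-5p (chrX:151912353-151912374, plus strand): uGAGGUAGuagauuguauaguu
let-7g-5p (chr9:106178846-106178867, plus strand): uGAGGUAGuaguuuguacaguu
miR-98-5p (chrX:151913229-151913250, plus strand): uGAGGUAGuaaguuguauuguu

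The complement of that seed, CTACCTC, was searched on the transcribed strand of the longest annotated 3′ UTR of each gene (GENCODE M21, GRCm38). All 8 genes held at least 1 match. *Lin28b*, *Hmga2* and *Igf2bp1* held 4 matches each, *Lin28a* and *Arid3a* held 2 each, and *Hmga1*, *Igf2bp2* and *Igf2bp3* held 1 each. Among all 20996 3′ UTRs scanned, 8.95% held a match, and among those between 1183 and 6337 bases long, the range of the 8 genes, 14.8% did. The 8 genes belong together because of their known link to let-7, so their matches are a description. The match nearest to the stop codon in each gene is shown with the 16 bases before it and 1 base after it, the match in capitals.
*Lin28a* (chr4:134005189-134005212, minus strand): tgcacagcctgttgaaCTACCTCa
*Lin28b* (chr10:45381022-45381045, minus strand): cacccgggcgggaagtCTACCTCa
*Hmga1* (chr17:27563276-27563299, plus strand): ctcctctgttcacaaaCTACCTCt
*Hmga2* (chr10:120364224-120364247, minus strand): cgccgacattcaatttCTACCTCa
*Igf2bp1* (chr11:95961778-95961801, minus strand): tgctgtgcgaagtaaaCTACCTCa
*Igf2bp2* (chr16:22059473-22059496, minus strand): aacacacaaataaaagCTACCTCa
*Igf2bp3* (chr6:49086787-49086810, minus strand): gtgcatttttactcaaCTACCTCa
*Arid3a* (chr10:79953894-79953917, plus strand): caaggcaagtttctttCTACCTCa

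Between 21040536 and 23986458 reads were counted per library. *Uqcrq* fell in mutant cells, from 94.1 ± 13.3 counts per 1000000 (CPM; SD, n = 4) to 21.3 ± 4.45 CPM (SD, n = 5), with no overlap between genotypes. The sorted cells carried progenitor transcripts, with *Six2* at 571 ± 53.4 CPM in control (SD, n = 4) and 704 ± 102 CPM in mutant libraries (SD, n = 5), and the summed level of the 11 progenitor markers ranged from 2338 to 2845 CPM in control and from 2335 to 2803 CPM in mutant libraries. None of these 11 markers passed the threshold, an adjusted p-value under 0.05 in the edgeR quasi-likelihood test with Benjamini-Hochberg adjustment over all genes tested, 3 had an unadjusted p-value under 0.05, and DESeq2 and limma-voom called 0 and 2. Of all 14990 genes tested, 14.8% passed with edgeR, 7.82% as higher, and 31.4% had an unadjusted p-value under 0.05. DESeq2 and limma-voom called 3184 and 4858 genes. Summed stroma markers were higher in every mutant library, at 447 to 1109 CPM against 220 to 360 CPM in control. Of the 13 stroma markers 8 rose, the most abundant being *Tcf21*, with 11 called by DESeq2 and 11 by limma-voom. Summed macrophage markers ranged from 2.61 to 14.1 CPM in control and from 13.98 to 149 CPM in mutant libraries. Of the 8 macrophage markers 3 rose, all 8 had a fitted change above 0 and an unadjusted p-value under 0.05, and DESeq2 and limma-voom called 6 and 8. Of the 8 ureteric bud markers, 5 had a median under 1 CPM, as did 9 of 10 erythroid, 6 of 8 endothelial and all 8 germ and pluripotent cell markers. Among 5 endothelial markers tested, *Pecam1* rose and *Egfl7* fell. None of 4 ureteric bud markers tested passed with edgeR, 3 had an unadjusted p-value under 0.05, and DESeq2 and limma-voom called 2 and 2. Fewer cells of a type and less RNA per cell cannot be told apart in these bulk samples. The authors could not fully exclude that differentiating heterozygous cells with low fluorescence were sorted too. The part of such cells in the differences between genotypes was not tested.

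*Lin28a* and *Lin28b*, the RNA-binding proteins that hold back let-7, were at or near 0 reads in both genotypes. *Lin28a* (ENSMUSG00000050966, chromosome 4, 134003330 to 134018841) had 2 reads in control replicate 71 and 1 read in mutant replicate 74, and none in the other 7 libraries. *Lin28b* (ENSMUSG00000063804, chromosome 10, 45376620 to 45470201) had 1 read in control replicate 71, and in the mutant libraries 13 reads in replicate 74, 2 in replicate 75 and 1 in replicate 79, with 0 in the remaining 5 libraries. Only the 13 reads of mutant replicate 74, with a 95% exact Poisson interval from 6.92 to 22.2 reads, lay above the floor of 3 counts used here. Per length, this library was at 0.106 fragments per kilobase of gene length and 1000000 counted reads (FPKM). The floor of 3 counts corresponds to 0.125 to 0.143 counts per 1000000 counted reads, depending on the library. At this depth a *Lin28* transcript was therefore not detectable above the floor in 8 of 9 libraries, and no fold change is given. These intervals and floors cover counting error only. Expression of both genes is also a mark of pluripotent and early germ cells, whose 8 markers summed to 0.253 to 0.549 CPM in control and 0.272 to 2.56 CPM in mutant libraries.

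The levels of the other 6 genes can be ranked on the FPKM scale, which divides by gene length. Over all 9 libraries the mean was 56.9 FPKM for *Hmga1*, 35.3 for *Igf2bp2*, 11.3 for *Hmga2*, 5.58 for *Igf2bp1*, 4.81 for *Igf2bp3* and 1.26 for *Arid3a*. *Hmga1* was above *Igf2bp2*, *Igf2bp2* above *Hmga2*, *Hmga2* above *Igf2bp1*, and *Igf2bp3* above *Arid3a* in all 9 libraries. The order of the neighbours *Igf2bp1* and *Igf2bp3* differed by genotype, *Igf2bp1* being the higher in all 4 control libraries and *Igf2bp3* in all 5 mutant libraries. The gap was small in some of them, with 5.20 against 5.02 FPKM in control replicate 71 and 5.89 against 6.09 FPKM in mutant replicate 78. This order was noticed after the values were seen and was not tested. The deposited lengths equal that of a single long transcript, which for *Igf2bp2* is one annotated with a retained intron, so its FPKM is a low estimate if the shorter coding transcript was the one sequenced.

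**Figure D1:**
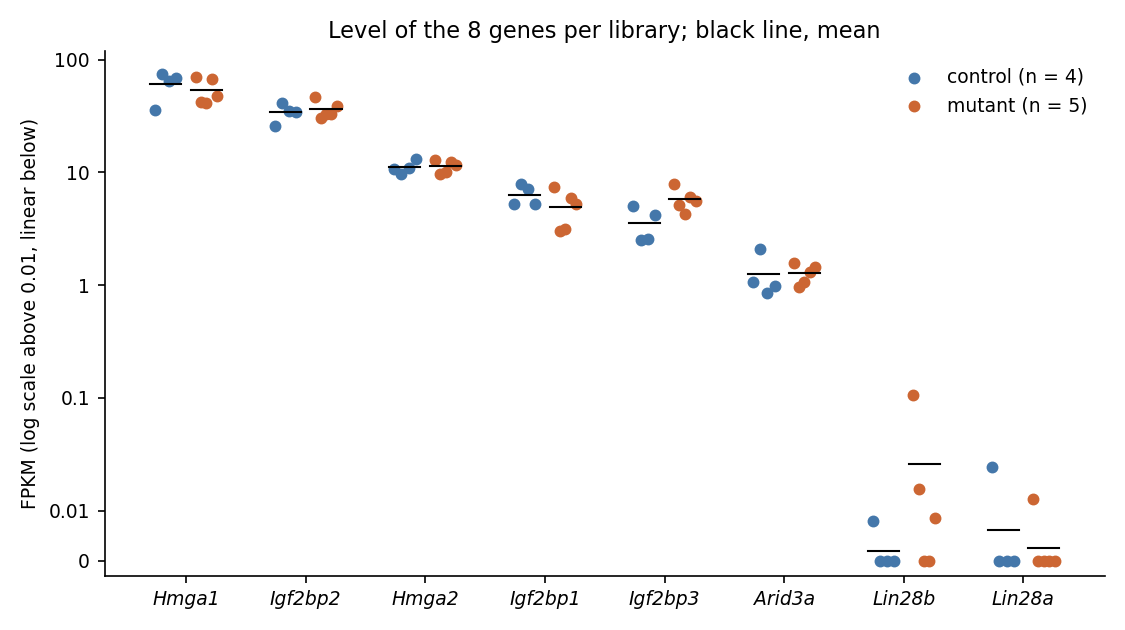
Level of the 8 genes in FPKM (vertical axis, logarithmic above 0.01 and linear below) in each control (blue, n = 4) and mutant (orange, n = 5) library, with the mean as a black line. *Hmga1* and *Igf2bp2* are the most abundant, the genotypes overlap for every gene, and *Lin28a* and *Lin28b* lie at or near 0.

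Of the 6 tested genes, 1 passed the threshold, *Igf2bp3*, which rose in mutant cells, and the other 5 did not pass in either direction or with an unadjusted p-value under 0.05. For comparison, 14.8% of all tested genes passed, 7.82% as higher and 7.02% as lower, so the share among the 6 was near the background. An unadjusted p-value under 0.05 was found for 31.4% of all tested genes. The median log2 fold change of the 6 genes was 0.12, against -0.01 for all tested genes. The libraries of the genotypes overlapped for all 6, whereas they did not overlap for 15.2% of tested genes.

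The IGF2BP proteins bind mRNAs such as *Igf2* and *Myc* and govern their transport, translation and stability. *Igf2bp3* (ENSMUSG00000029814, chromosome 6, 49085221 to 49214954) had 21.7, 9.97, 10.6 and 17.9 CPM in control replicates 71, 72, 73 and 76. In mutant replicates 74, 75, 77, 78 and 79 it had 33.5, 23.9, 19.9, 28.2 and 23.9 CPM. Control replicates 72 and 73 were the lowest of all libraries, and control replicate 71 was above mutant replicate 77. The mean went from 15.0 ± 5.72 CPM (SD, n = 4) to 25.9 ± 5.17 CPM (SD, n = 5), or on the log2 scale a change of 0.78 (SE of the fitted value 0.24, 95% interval 0.27 to 1.30, 1.72-fold) with an adjusted p-value of 0.0434 (edgeR). The 2-sided exact permutation test of the CPM gave p = 0.0238. The gene passed in 8 of 15 alternatives, with adjusted p-values from 0.0026 to 0.135 and a positive fold change in each. It did not pass without control replicate 72 (log2 fold change 0.63) or 73 (0.65), or without mutant replicate 74 (0.67), 75 (0.81), 78 (0.75) or 79 (0.81).

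The 3′ UTR of *Igf2bp3* overlaps the last exon of *Malsu1*, a gene on the opposite strand that encodes a mitochondrial ribosome assembly factor. The annotated exons share 1529 bases (chromosome 6, 49085223 to 49086751), and strand was not recorded, which means that reads there cannot be assigned to either gene with certainty. *Malsu1*, which was chosen after its values were seen, had 62.8, 39.1, 46.7 and 56.4 CPM in control replicates 71, 72, 73 and 76, and 45.8, 70.9, 65.9, 71.2 and 62.6 CPM in mutant replicates 74, 75, 77, 78 and 79. In the controls both genes were high in replicates 71 and 76 and low in replicates 72 and 73. In mutant replicate 74 *Igf2bp3* had its highest and *Malsu1* its lowest mutant value. The log2 fold change of *Malsu1* was 0.31 (SE 0.17, edgeR, adjusted p = 0.226), and with the reads of both genes summed it was 0.43 (standard error 0.15, adjusted p = 0.0746). The part of *Malsu1* reads in the change of *Igf2bp3* was not tested. Nor was the part of the stroma and macrophage transcripts that were higher in the same mutant libraries.

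**Figure D2:**
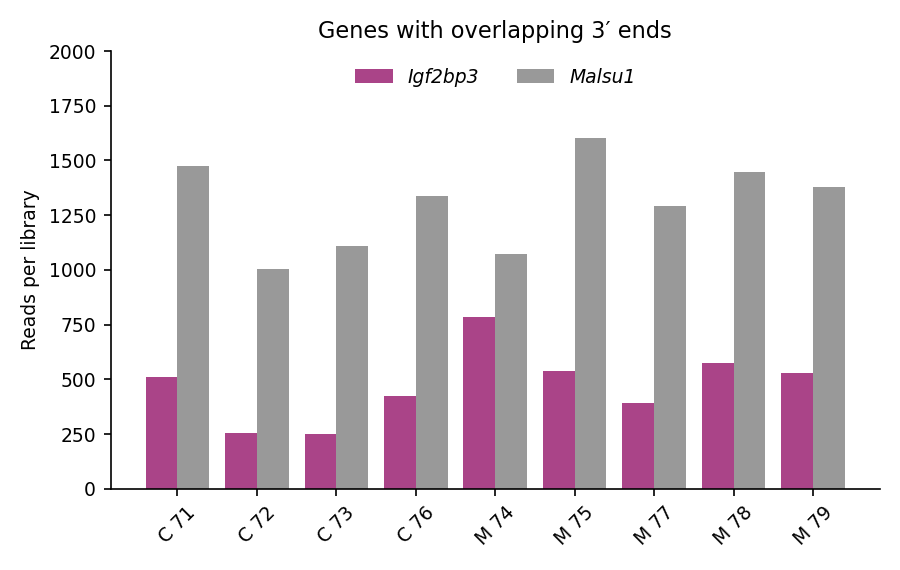
Reads per library (vertical axis) for *Igf2bp3* (purple) and *Malsu1* (grey), whose 3′ ends overlap on opposite strands (C, control; M, mutant). The 2 control libraries with fewest *Igf2bp3* reads also had the fewest *Malsu1* reads among controls.

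*Igf2bp2* (ENSMUSG00000033581, chromosome 16, 22059009 to 22163299) was the most abundant family member and had 128, 190, 164 and 167 CPM in control replicates 71, 72, 73 and 76. The mutant replicates 74, 75, 77, 78 and 79 had 222, 158, 174, 175 and 188 CPM. Control replicate 71 was the lowest and mutant replicate 74 the highest, and the remaining 7 libraries were interleaved. On the log2 scale the genotypes differed by 0.18 (SE 0.14, edgeR, adjusted p = 0.4), with a 95% interval from -0.11 to 0.47.

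*Igf2bp1* (ENSMUSG00000013415, chromosome 11, 95957163 to 96005940) had 43.3, 61.2, 56.3 and 43.8 CPM in control replicates 71, 72, 73 and 76. In mutant replicates 74, 75, 77, 78 and 79 it had 60.3, 27.1, 28.5, 52.6 and 43.1 CPM. Mutant replicates 75 and 77 were well below every control library, replicate 79 was just below the lowest, and replicates 74 and 78 were within the control range. Mutant against control, the log2 fold change was -0.27 (SE 0.23, edgeR, adjusted p = 0.441), with a 95% interval from -0.76 to 0.21.

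Within the family, *Igf2bp2* made up 77.1 ± 3.64% of the summed IGF2BP FPKM in control (SD, n = 4) and 77.3 ± 3.15% in mutant libraries (SD, n = 5). The share of *Igf2bp1* was 14.4 ± 1.64% in control (SD, n = 4) and 10.3 ± 2.36% in mutant libraries (SD, n = 5), and that of *Igf2bp3* was 8.49 ± 4.14% and 12.4 ± 1.33%. Of the 3 shares, that of *Igf2bp1* had a 2-sided exact permutation p = 0.0317, which was 0.0952 after Benjamini-Hochberg adjustment over the 3 shares, and that of *Igf2bp3* had p = 0.103, or 0.155 adjusted. The shares are tied to each other because they sum to the whole. The summed FPKM of the family was 44.0 ± 6.46 in control (SD, n = 4) and 46.9 ± 9.30 in mutant libraries (SD, n = 5), which is within the spread (p = 0.659, exact permutation, 2-sided).

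**Figure D3:**
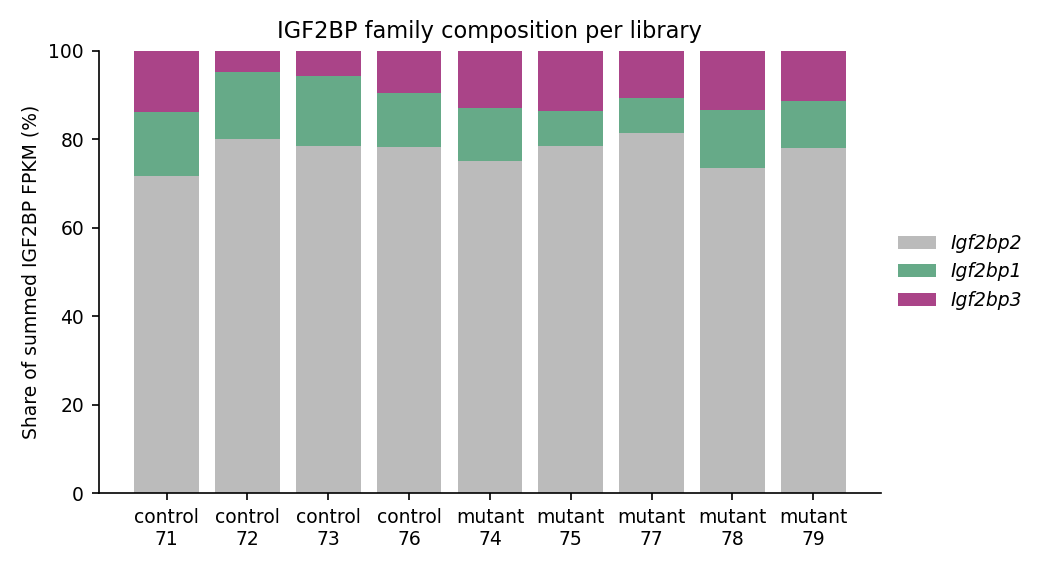
Share of the summed IGF2BP FPKM (vertical axis, percent) taken by *Igf2bp2* (grey), *Igf2bp1* (green) and *Igf2bp3* (purple) in each control and mutant library. *Igf2bp2* takes most of the total in every library, and the share of *Igf2bp3* is lowest in control replicates 72 and 73.

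HMGA1 is an architectural chromatin protein that is abundant in proliferating embryonic cells. *Hmga1* (ENSMUSG00000046711, chromosome 17, 27556620 to 27563674) had 67.0, 130, 117 and 130 CPM in control replicates 71, 72, 73 and 76. In mutant replicates 74, 75, 77, 78 and 79 it had 129, 84.6, 84.3, 136 and 89.2 CPM. Both genotypes thus held high and low libraries, and the spread within a genotype was larger than the difference between them. The log2 fold change was -0.08 (SE 0.21, edgeR, adjusted p = 0.823), with a 95% interval from -0.53 to 0.36. Without control replicate 71, the lowest library, it was -0.26.

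*Hmga2* (ENSMUSG00000056758, chromosome 10, 120361275 to 120476469), a let-7 target that marks undifferentiated mesenchyme, had 40.6, 33.9, 39.6 and 50.3 CPM in control replicates 71, 72, 73 and 76. The mutant replicates 74, 75, 77, 78 and 79 had 47.9, 38.9, 41.1, 50.5 and 43.8 CPM. All mutant libraries but replicate 78, which was just above the highest control library, lay within the control range. Mutant against control, the log2 fold change was 0.11 (SE 0.14, edgeR, adjusted p = 0.62), with a 95% interval from -0.19 to 0.41.

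*Arid3a* (ENSMUSG00000019564, chromosome 10, 79927043 to 79955018), which encodes an AT-rich DNA-binding factor of haematopoietic and embryonic cells, was the least abundant gene tested. It had 5.71, 10.4, 4.38 and 5.19 CPM in control replicates 71, 72, 73 and 76, and 8.22, 5.49, 6.12, 7.48 and 7.67 CPM in mutant replicates 74, 75, 77, 78 and 79. Control replicate 72 was the highest of all libraries, and the other 3 control libraries were among the 4 lowest. On the log2 scale the genotypes differed by 0.12 (SE 0.26, edgeR, adjusted p = 0.79), with a 95% interval from -0.45 to 0.69. Without control replicate 72 it was 0.46, with an adjusted p-value of 0.256.

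The genes whose pattern over the 9 libraries was nearest to that of *Igf2bp3*, out of those averaging 10 CPM or more, were *Mtif3* and *Cyhr1*. The root mean square difference of the standardized log2 CPM was 0.22 for *Mtif3* and 0.34 for *Cyhr1*, on a scale where 1 is the standard deviation of each gene. Their log2 fold changes were 0.24 and 0.19, with adjusted p-values of 0.258 and 0.266 (edgeR).

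Genes that process let-7 were measured in the same cells, and none of the 19 tested passed the threshold with edgeR, against 14.8% of all genes tested. An unadjusted p-value under 0.05 was found for 3 of them, and DESeq2 and limma-voom called 3 and 4. With edgeR, 1 passed under upper-quartile scaling, with a minimum of 10 counts per library, and without control replicate 76, mutant replicate 74 or mutant replicate 79. Their median log2 fold change was -0.10, and the values ran from -0.54 to 0.36. The uridylyl transferase gene *Zcchc11* (TUT4), which with LIN28A marks precursor let-7 for decay, had 134 ± 10.7 CPM in control (SD, n = 4) and 162 ± 9.87 CPM in mutant libraries (SD, n = 5). Its log2 fold change was 0.27 (adjusted p = 0.0884, edgeR), without overlap between genotypes, as for 15.2% of all tested genes. *Dgcr8*, the partner of the nuclease DROSHA, had 27.3 ± 4.97 and 18.8 ± 3.38 CPM (SD), or on the log2 scale a change of -0.54 (adjusted p = 0.0517, edgeR). *Dicer1*, *Drosha* and the exonuclease gene *Dis3l2* had log2 fold changes of 0.17, -0.06 and -0.20. The most abundant gene of the list, *Hnrnpa1*, a splicing factor that also binds let-7 precursors, had a value of -0.21. It did not overlap between genotypes either, nor did *Ddx5* (-0.26), and both were lower in mutant libraries. *Trim71*, a let-7 target and developmental timing factor, had 1.48 ± 0.528 CPM in control (SD, n = 4) and 1.22 ± 0.729 CPM in mutant libraries (SD, n = 5).

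Mature microRNAs were not measured, but 4 genes whose spans hold let-7 or miR-98 hairpins were, along with 1 listed as a host by name. None of these 5 passed the threshold with edgeR, against 14.8% of all genes tested, and 1 did so without mutant replicate 74. An unadjusted p-value under 0.05 was found for 2, against 31.4% of all genes tested, and DESeq2 and limma-voom called 1 and 2. With only 5 genes, these counts are near the background. *2810055G20Rik*, also called *Mir99ahg*, spans the hairpin of the let-7c shown above. It had 22.5, 23.1, 20.1 and 25.8 CPM in control replicates 71, 72, 73 and 76, and 22.5, 41.4, 38.0, 34.4 and 27.9 CPM in mutant replicates 74, 75, 77, 78 and 79. All mutant libraries but replicate 74 were above every control library. The log2 fold change was 0.52 (SE 0.18, edgeR, adjusted p = 0.0656). *6720427I07Rik*, whose span holds the let-7d hairpin, had a log2 fold change of 0.54 (SE 0.23, edgeR, adjusted p = 0.13). *Huwe1* (let-7f and miR-98), *Wdr82* (let-7g) and *2610203C20Rik*, listed by name as the let-7a host *Mir100hg*, had values of 0.18, 0.14 and 0.02. No hairpin of the scan lay in *2610203C20Rik*. The only let-7a hairpin in the scan was *Mirlet7a-1* on chromosome 13, so the scan could not place any other let-7a hairpin. The level of a host transcript does not give that of the microRNA.

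Of 21 other known let-7 targets, 5 rose, 2 fell and 14 did not pass the threshold (33.3% called, against 14.8% of all genes tested), and the median log2 fold change was 0.29. The direction was thus mixed among the genes that passed. An unadjusted p-value under 0.05 was found for 12 of the 21, against 31.4% of all genes tested, and DESeq2 and limma-voom called 9 and 10. The list was chosen with earlier results of these data known, so its share called is a description. *Thbs1*, which encodes the matrix protein thrombospondin 1, rose most, from 9.37 ± 2.95 CPM (SD, n = 4) to 41.3 ± 17.03 CPM (SD, n = 5), or on the log2 scale a change of 2.14 (SE 0.30, edgeR, adjusted p = 0.00116). The GTPase gene *Nras* went from 122 ± 8.68 to 169 ± 16.03 CPM (SD), the cell cycle gene *Ccnd2* from 104 ± 9.18 to 165 ± 36.4 CPM (SD), the kinase gene *Map4k4* from 23.4 ± 1.67 to 35.3 ± 6.18 CPM (SD) and the repressor gene *Bach1* from 9.08 ± 1.45 to 15.1 ± 2.12 CPM (SD). Their log2 fold changes were 0.47, 0.67, 0.59 and 0.73. None of these 5 genes overlapped between genotypes, and 5.65% of all tested genes passed as higher without overlap. Of the 1172 genes that passed as higher, 847 did not overlap, so a lack of overlap was common among such genes.

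The 2 targets that fell were *Mycn*, a proto-oncogene that keeps nephron progenitors cycling, and the cell cycle gene *Ccnd1*. *Mycn* went from 85.8 ± 30.1 CPM (SD, n = 4) to 42.7 ± 8.56 CPM (SD, n = 5), or on the log2 scale a change of -1.01 (SE 0.22, edgeR, adjusted p = 0.0103). *Ccnd1* went from 67.2 ± 34.8 to 28.7 ± 13.03 CPM (SD), or on the log2 scale a change of -1.23 (SE 0.37, edgeR, adjusted p = 0.0438), and passed in 7 of 15 alternatives. The genotypes overlapped for both. *Myc*, the most abundant target of the list, went from 281 to 406 CPM on average, a log2 fold change of 0.53 that did not pass (edgeR, adjusted p = 0.0626). *Hras* and *Igf1r* had log2 fold changes of 0.43 and -0.43 and did not pass. Stroma and macrophage markers were higher in mutant libraries too. *Thbs1* was highest in mutant replicates 77, 78 and 79, at 67.2, 48.9 and 36.1 CPM, which also had the highest summed macrophage markers, at 149, 69.4 and 49.3 CPM, and it was lowest among mutants in replicate 75 (26.7 CPM), where stroma markers were highest. The part of either marker group in these changes was not tested.

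**Figure D4:**
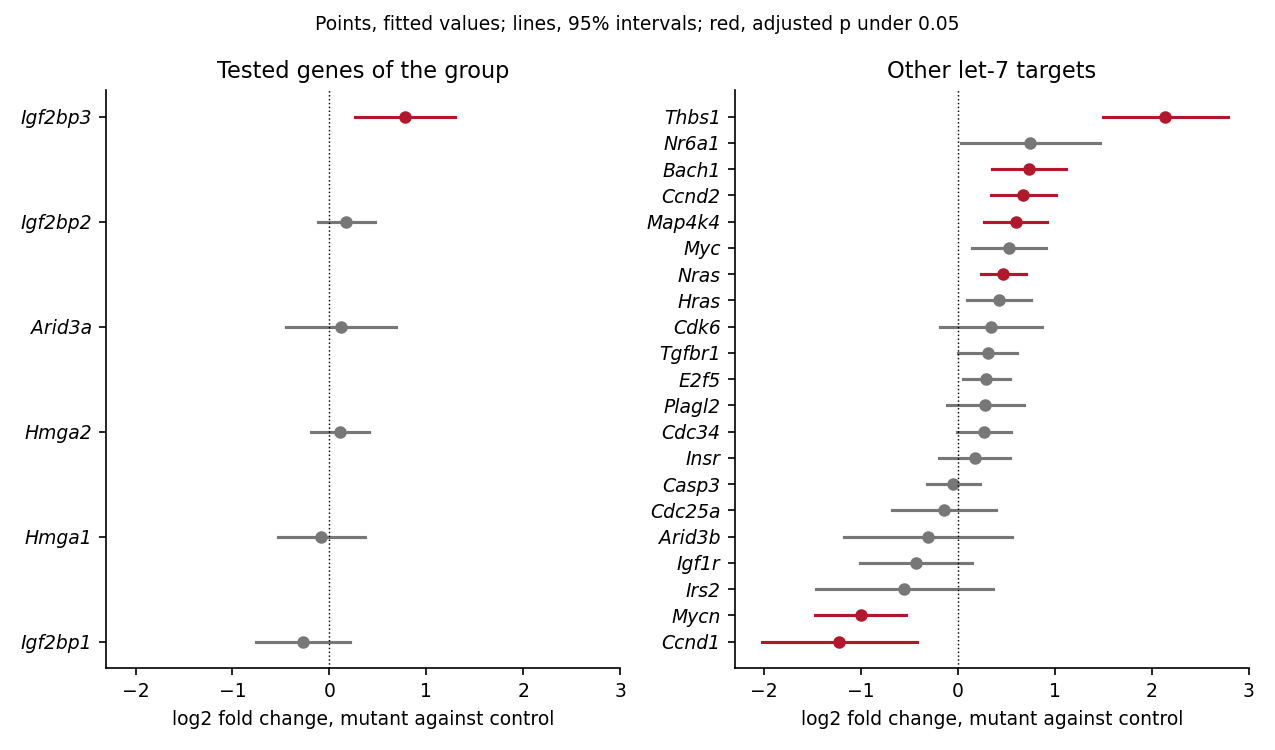
Log2 fold change, mutant against control (horizontal axes), with 95% intervals for the 6 tested genes of the group and for 21 other let-7 targets; red marks an adjusted p-value under 0.05. Only *Igf2bp3* passes in the first panel, and 5 genes to the right and 2 to the left pass in the second.

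All tested genes with an annotated 3′ UTR were also grouped by their number of let-7 seed matches, as a description. The median log2 fold change was -0.00 for the 10436 genes with 0 matches, 0.03 for 1072 genes with 1 match and 0.11 for 132 genes with 2. The class with 3 or more matches, *Hmga2* and *Igf2bp1* among them, had a median of 0.26 but held only 18 genes. The middle 50% of genes spanned 0 in every group, from -0.30 to 0.28 with no match and from -0.22 to 0.39 with 2 matches. Genes with matches also had longer 3′ UTRs, with a median of 1072 bases at 0 matches and 3504 bases at 2, and a lower median level, 29.7 against 17.1 CPM. The part of length and level in these medians was not tested. The share of genes called higher was 8.51%, 9.98%, 7.58% and 11.1% for 0, 1, 2 and at least 3 matches.

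**Figure D5:**
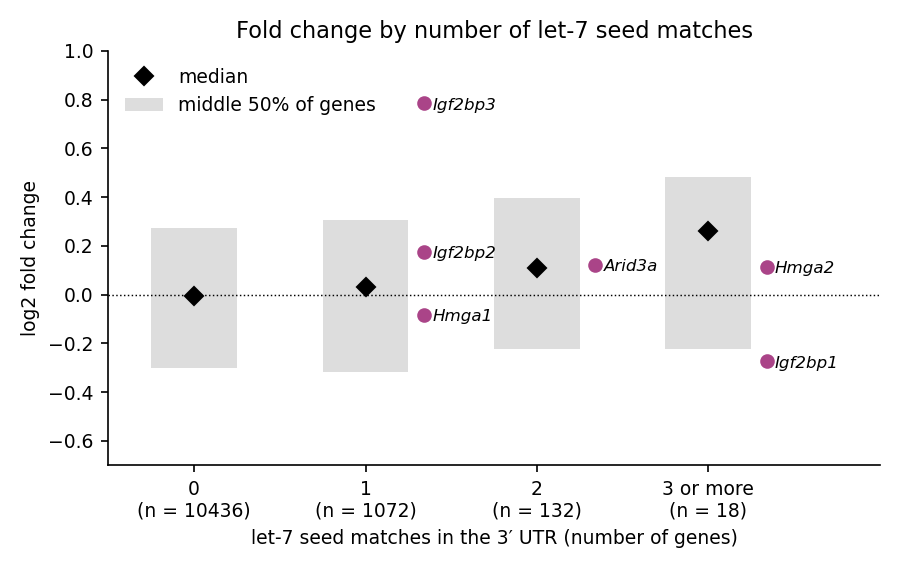
Log2 fold change (vertical axis) of tested genes by the number of let-7 seed matches in the 3′ UTR; diamonds are medians, grey bars the middle 50% of genes, and purple points the 6 tested genes of the group. *Igf2bp3* is the only one of the 6 points outside the grey bar of its class on the high side, and *Igf2bp1*, at -0.27, lies just below its own.

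Transcripts known to be bound by IGF2BP proteins changed in both directions, with 2 higher and 2 lower of 9 tested (44.4% called, against 14.8% of all genes tested). An unadjusted p-value under 0.05 was found for 6 of the 9, against 31.4% of all genes tested, and DESeq2 and limma-voom called 5 and 6. This list too was chosen with earlier results of these data known, so its share called is a description. *Igf2*, the fetal growth factor after which the family is named, had 555, 701, 661 and 619 CPM in control replicates 71, 72, 73 and 76, and 414, 266, 332, 423 and 383 CPM in mutant replicates 74, 75, 77, 78 and 79. No mutant library reached the lowest control library, and the log2 fold change was -0.80 (SE 0.14, edgeR, adjusted p = 0.00387). *H19*, the noncoding RNA transcribed beside *Igf2*, fell from 499 ± 99.6 CPM (SD, n = 4) to 267 ± 85.6 CPM (SD, n = 5), or on the log2 scale a change of -0.90 (adjusted p = 0.0133, edgeR). The adhesion receptor *Cd44* rose from 52.8 ± 5.78 to 86.7 ± 19.9 CPM (SD) and the matrix gene *Fn1* from 21.6 ± 2.27 to 63.5 ± 34.5 CPM (SD). *Fn1* in the mutant libraries followed the order of the summed stroma markers, from 33.7 CPM in replicate 77 to 109.6 CPM in replicate 75, where these markers summed to 447 and 1109 CPM, and their part in its change was not tested. *Actb*, the classical IGF2BP1 cargo, had a log2 fold change of 0.09 (adjusted p = 0.686, edgeR).

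None of 11 tested HMG and ARID relatives passed the threshold with edgeR, DESeq2 or limma-voom, and 0 had an unadjusted p-value under 0.05. Of all genes tested, 14.8% passed with edgeR and 31.4% had an unadjusted p-value under 0.05. The abundant *Hmgb1* and *Hmgb2* had log2 fold changes of 0.08 and -0.14. Of 5 genes with cold-shock domains, the fold that LIN28 proteins also use to bind RNA, none passed with edgeR, 3 had an unadjusted p-value under 0.05, and DESeq2 and limma-voom called 1 and 3. With edgeR, 1 passed without control replicate 71 or 76. For a list of 5, none passing is near the 14.8% of all genes tested. *Ybx1*, a general mRNA packaging factor, had a log2 fold change of 0.02. Of 13 genes that write, read or erase N6-methyladenosine, the mark that IGF2BP proteins also read, 2 rose, *Ythdc1* (log2 fold change 0.40) and *Rbm15* (0.77), and 11 did not pass, among them the most abundant, the reader gene *Ythdf2* (0.05). That is 15.4% called, near the 14.8% of all genes tested, and the count was 4 with DESeq2, 6 with limma-voom, 5 without mutant replicate 74, 1 with no filter and without control replicate 71 or 72 or mutant replicate 77, and 0 without control replicate 73 or mutant replicate 78.

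Among 22 genes tied to the timing of nephron progenitors, 3 rose, 1 fell and 18 did not pass, so that 18.2% were called, near the 14.8% of all genes tested. The count of 4 went to 2 without control replicate 71 and to 6 with limma-voom. The fall was that of *Igf2*, also counted above. The nuclear factor genes *Nfia* and *Nfib*, which act late in many progenitor lineages, rose from 4.29 ± 1.91 to 9.89 ± 3.52 CPM and from 2.70 ± 1.02 to 13.5 ± 8.92 CPM (SD, n = 4 and 5), log2 fold changes of 1.20 and 2.32. *Nfia* and *Nfib* had their highest values, 13.9 and 27.2 CPM, in mutant replicate 75, the library with the highest summed stroma markers. The imprinted gene *Dlk1* rose from 16.2 ± 6.96 to 54.4 ± 30.8 CPM (SD), or on the log2 scale a change of 1.75. It was highest in mutant replicates 75 and 74, at 95.2 and 77.9 CPM, which had the highest summed stroma markers, at 1109 and 698 CPM. In mutant replicate 79 it had 25.7 CPM, within the control range. The part of stroma transcripts in the changes of *Nfia*, *Nfib* and *Dlk1* was not tested. *Fgf20*, a ligand that young progenitors express, had 47.5 ± 5.21 and 44.96 ± 19.1 CPM (SD) with a log2 fold change of -0.08, and *Cited1*, a marker of the least differentiated cap cells, had one of 0.11. *Igf1r* and *Tsc1* did not pass. Of 12 proliferation genes, 1 fell, *Mcm5* (log2 fold change -0.73, adjusted p = 0.0155, edgeR). *Mki67* had a log2 fold change of -0.30 (adjusted p = 0.208, edgeR), and the most abundant, the mitotic cyclin gene *Ccnb1*, had one of -0.03. The median of the 12 was -0.21, against -0.01 for all tested genes, and only 2 had a fitted change above 0. The share called was 8.33%, against 14.8% of all genes tested, and the count was 0 without control replicate 73, 1 with DESeq2 and 5 with limma-voom.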

How the data were processed

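RNA-seq counts of 9 libraries were used, 4 control and 5 mutant. The authors counted reads per gene, and the deposited table gives 1 count column and 1 FPKM column per library, the FPKM being the authors' counts per kilobase of gene length and 1000000 counted reads. The labels' processing lists name STAR, DESeq2 and mm10, without versions or roles; the counter is not given in the sources used here. The labels describe amplified cDNA from few cells with poly(A) selection and no strand information, so amplification can add spread. How reads within overlapping genes were counted is not known. Deposited signal means per genotype, log2 fold changes and p-values belong to the authors' own comparison and were not used. Of the gene identifiers that carry the same symbol in GENCODE M21 (GRCm38), 88.9% lay within 1000 bases at both ends, as did 7 of the 8 members (*Lin28b* ends earlier in the table).

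Counts were tested in R 4.3.3 with edgeR 4.0.16 (filterByExpr, TMM, robust quasi-likelihood test, Benjamini-Hochberg over 14990 genes, threshold 0.05). CPM are counts per 1000000 of the TMM-scaled size of the tested genes. The standard error (SE) was taken as the fitted change divided by the root of F. Exact permutation tests, 2-sided, of a single value ran over 126 splits, whose smallest p is 0.00794. Totals ranged from 21040536 to 23986458 reads; 3 counts were the floor. The scripts were tested on simulated data.

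Members and lists were chosen with earlier results of these data known. The genes named are the members, *Uqcrq*, list genes that passed the threshold, the most abundant gene of each pathway list, other list genes chosen after their values were seen, and for members past the threshold the 2 nearest genes; *Malsu1* was added after its values were seen. List symbols were matched to the table directly or by RefSeq synonym, and let-7 hosts also by coordinates. Alternatives were DESeq2 1.42.0, RLE and upper-quartile scaling, no filter, a minimum of 10 counts per library, limma-voom (limma 3.58.1) with quality weights, and each library left out; summing *Igf2bp3* with *Malsu1*, and the hosts by coordinates, were added after seeing the data. Some genes are not reported here and were left out of the lists. Figures used Python 3.11.15 and matplotlib 3.10.9.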

Additional observations from a re-analysis of the deposited data

Results flagged for a closer look

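For 6 of 40 gene or marker levels within a genotype, the highest library was set apart from the others by Dixon's criterion. Chance alone flags about 1 in 20 for continuous values, or 2 here. That rate does not hold for counts near 0, where any read is flagged if the other libraries are at 0. The 6 flags can therefore not be set against the 2. Mutant replicate 74 stood out for *Lin28b*, at 0.554 CPM against at most 0.0886 CPM in the other mutant libraries, and for *Lin28a*, at 0.0426 CPM against 0. Control replicate 71 stood out for *Lin28a*, at 0.0852 CPM against 0, and for *Lin28b*, at 0.0426 CPM against 0; except for the 13 *Lin28b* reads of mutant replicate 74, these values are 1 or 2 reads. The summed germ and pluripotent cell markers were at 0.549 CPM in control replicate 76, against at most 0.298 CPM in the other controls, and at 2.56 CPM in mutant replicate 78, against at most 0.797 CPM in the other mutants. In mutant replicate 74, which had the *Lin28b* reads, these markers summed to 0.682 CPM.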

How the results depend on the processing

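The number of the 8 genes past the threshold was 1, and it was 0 with upper-quartile scaling, where *Igf2bp3* had a log2 fold change of 0.75 and an adjusted p-value of 0.0524. With 1 library left out the number was between 0 and 1, and the log2 fold change of *Igf2bp3* between 0.63 and 1.01. With *Malsu1* reads added it was 0.43. The number of all genes past the threshold was 2225, 4858 with limma-voom, and between 1046 (without control replicate 73) and 3136 (without mutant replicate 74) with 1 library left out, and it was 1354 without replicate 71, 1272 without replicate 72 and 1336 without replicate 78. That of genes in the lists was 17, 26 with DESeq2, 39 with limma-voom, and between 11 (without control replicate 73) and 24 with 1 library left out. Of the list genes named as called, *Ccnd1* kept its call without control replicate 76 or mutant replicate 74 and lost it without any other library. *Nfia* lost it without replicates 71, 73, 76, 75 or 79, *Ythdc1* without 72, 73, 77 or 78, *Rbm15* without 71, 73 or 78, *Dlk1* without 71 or 72, *Map4k4* without 72 or 73, and *Mcm5* without 73. With no filter on low counts, *Fn1* (adjusted p = 0.0612), *Ythdc1* (0.0534), *Dlk1* (0.0949) and *Ccnd1* (0.172) lost theirs (edgeR). With 1 library left out, the log2 fold change of *Hmga1* ranged from -0.26 to 0.014 and that of *Arid3a* from -0.022 to 0.46; the sign turned for *Hmga1* without control replicate 72 (0.0024) or 76 (0.014), and for *Arid3a* without control replicate 73 (-0.022). Neither passed in any of the 15 alternatives. The causes were not tested. No paired analysis was possible because the genotypes share no replicate number. At this depth *Lin28a* and *Lin28b* had too few reads for any fold change. Whether the transcripts were absent or too rare to be seen was not tested.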
